A study of Rattus norvegicus with 20 samples.

Results

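The soleus of rats with a complete transection of the upper thoracic spinal cord was compared with the soleus of rats with an incomplete, contusion injury at the same level and no exercise. The members were the 4 transection and 4 sedentary contusion libraries, picked by label, which made 8 of the 20 libraries in the study. Injured rats had a laminectomy at T2 first. The transection rats carried a T2 complete transection and were labelled 8.5 weeks after injury. The contusion rats carried a 25 g-cm T2 contusion and were labelled 11.5 weeks after injury. Of the other 12 libraries, 4 each came from contused rats given swimming, contused rats given shallow water walking, both at 13.5 weeks, and rats without injury, labelled 11.5 weeks. Exercise started in week 2.5 and filled 5 days a week for 10 weeks. All were Sprague-Dawley rats, and after 4 days all were kept in small cages, 2 to a cage, to limit movement. Injury and labelled time cannot be told apart, because every transection library was taken earlier than every contusion library.

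The soleus is a slow postural muscle of the calf that works almost continuously against gravity. A complete transection at this level cuts all descending input to the lumbar motor neurons, while those neurons and their nerves to the muscle stay in place. A contusion of this kind usually spares some fibres, and rats regain some stepping. When a muscle loses its daily activity and load it shrinks, and soleus fibres shift from slow towards fast types.

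The deposited table gives read counts per Ensembl gene identifier and does not pair them with names, and the gene table used here held an Ensembl identifier for 0 of its 47357 genes. The 24613 identifiers were therefore paired with 0 symbols, and neither the muscle label nor other cell types could be checked against marker genes. Genes are described by direction, size, abundance and behaviour across libraries, and 5 identifiers are given with their values. Levels are given as CPM, counts per 1000000 counts of a library size corrected by the trimmed-mean method (TMM), with no correction for gene length.

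Total counts ran from 31877886 to 36438046 in transection libraries and from 22394223 to 35986860 in contusion libraries. Over these 8 libraries the first principal component of log2 CPM held 45.1% of the variance. Transection libraries lay between 3.08 and 85.2 on it and contusion libraries between -37.2 and -27.5. The value of 85.2 was that of transection library 3, the next highest being 23.9. That library also had the fewest genes with a count, 13837 against 15037 to 15610 in the other transection libraries and 15399 to 15602 in contusion libraries. Thinned to the total of the smallest library of the study, it held 13715 genes with a count and the other 7 held 14715 to 15471. Contusion library 3 stood apart in another way. It held 15 genes at 1 CPM or more and at 10 or more times the level of every other contusion library, up to 174 CPM. The other 3 contusion libraries held 0 such genes, and the transection libraries 0, 1, 2 and 1.

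Transcript levels in the soleus differed widely between the complete and the incomplete injury. Of 13398 genes tested, 813 were higher and 1240 lower after transection than after contusion (edgeR quasi-likelihood test, adjusted p below 0.05), which is 15.3% of tested genes, 6.07% higher and 9.26% lower. The median log2 difference was 0.65 among the higher genes and -0.87 among the lower genes. Among all tested genes it was 0.01. In a whole muscle, fewer cells of a type and less RNA per cell cannot be told apart.

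Lower genes outnumbered higher ones, and by how much depended on the scaling. Scaled by library totals alone, 218 genes stood higher and 2293 lower, with a median of -0.23 over all tested genes. Directions are therefore given relative to the bulk of the genes. The number of higher genes also rested on single libraries: it was 465 without transection library 2, 438 without transection library 3 and 440 without contusion library 2. The number of lower genes stayed between 882 and 1228 whichever transection or contusion library was omitted. Without transection library 3, 1372 of the 2053 called genes were called again in the same direction, and 0 changed sign.

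With TMM scaling, a greater share of the lower than of the higher genes changed by a wide margin. Of the lower genes 511 changed by over 2-fold, 41.2% of them, and of the higher genes 171, or 21%. Without transection library 3, 113 genes were higher by over 2-fold. Scaled by library totals alone, the shares were nearly equal: 77 of the 218 higher genes, 35.3%, and 855 of the 2293 lower genes, 37.3%, changed by over 2-fold. Changes over 4-fold were found for 119 lower and 23 higher genes, or 9.60% and 2.83%, and with library totals alone for 169 and 15, or 7.37% and 6.88%. Among the genes over 4-fold, the median level across the 8 libraries was 1.56 CPM for the lower and 14.5 CPM for the higher ones, so many of the steepest falls were in sparse transcripts. Even so, 12 of the 119 lower genes and 6 of the 23 higher genes had a mean of 100 CPM or more. In 3 of the lower genes all transection libraries had a count of 0; with these set to the bound that 3 counts over the group allow, the median of the lower genes was -0.87, which 3 values at the far end cannot move.

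**Figure D1:**
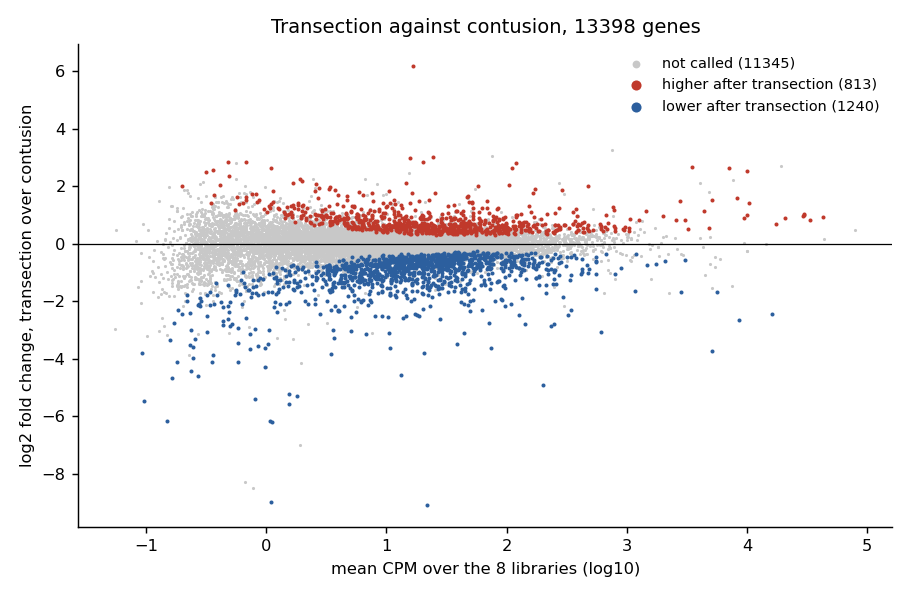
Each point is a tested gene, with its mean CPM over the 8 libraries on a log10 scale across the page and its log2 fold change, transection over contusion, up the page. Red points are the 813 higher genes and blue points the 1240 lower genes; the lower genes reach farther from 0, mostly at low abundance.

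Most calls were carried by whole groups of libraries. Of the 813 higher genes, 673 had all 4 transection libraries above all 4 contusion libraries, and of the 1240 lower genes 1140 had all 4 below. The genes were called on these same libraries, so their separation is partly set by the choice and is no support for the calls. Over all tested genes the groups were fully separate for 21.7%, with transection above in 9.24% and below in 12.5%. The steepest folds of all were not of this kind. The called gene with the highest log2 difference, 6.18, had 0.388, 131, 0.662 and 0.202 CPM in transection libraries 1 to 4 and 0.385, 0.202, 0.920 and 0.333 CPM in contusion libraries 1 to 4. Only transection library 2 was high, and the groups overlapped. The called gene with the lowest, -9.07, stood at 0.0970, 0.0364, 0 and 0.144 CPM in transection libraries and at 0.962, 0.121, 174 and 0.333 CPM in contusion libraries. There contusion library 3 alone was high, and the groups again overlapped.

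Called genes were spread over the whole range of abundance. For this, 10 classes of nearly equal size were formed from all tested genes by mean CPM over the 8 libraries. In class 1, under 0.653 CPM, 12 genes were higher and 56 lower. These small numbers moved easily: they were 9 and 21 with the 8 libraries fitted alone, 7 and 37 without contusion library 1 or contusion library 2, and 10 and 34 without contusion library 4. In the middle, class 5, 73 were higher and 150 lower. In class 10, from 81.7 CPM up, 182 were higher and 164 lower, and this was the 1 class with more higher than lower genes. The share of genes called was 5.08% in class 1 and 25.8% in class 10, while the median standard error of a log2 difference was 0.58 in class 1 and 0.15 in class 10. The balance in class 10 turned with the scaling: scaled by library totals alone, 63 of its genes were higher and 372 lower. Lower genes in class 10 also outnumbered higher ones when the 8 libraries were fitted alone (165 higher, 195 lower) and with voom (203 and 268). It turned as well without transection library 2 (91 higher, 125 lower), transection library 3 (79 and 159), contusion library 2 (93 and 120) or contusion library 3 (135 and 140), and without contusion library 4 it was 115 and 114. A mean over both groups also places genes partly by their change. Classed by the contusion mean alone, class 10 had 142 higher and 206 lower genes and class 1 had 28 and 32; classed by the uninjured mean, class 10 had 129 and 220 and class 1 had 28 and 29.

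**Figure D2:**
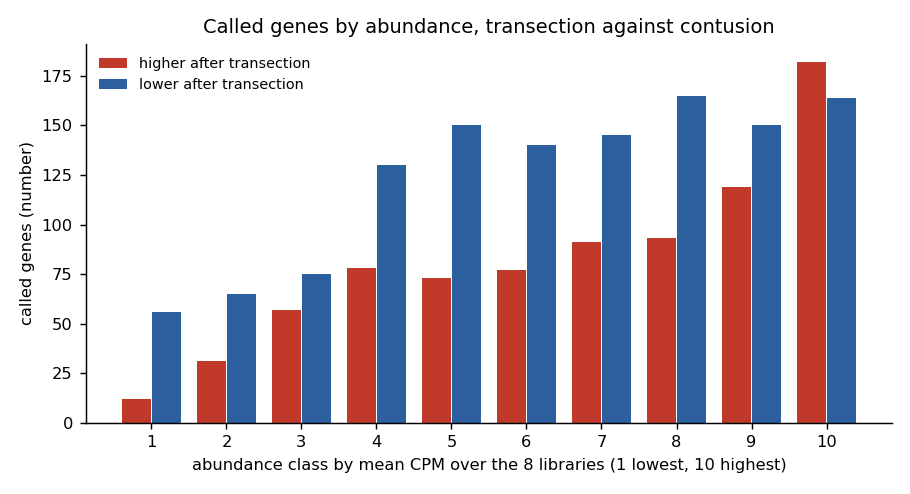
Bars give the number of called genes that were higher (red) and lower (blue) after transection than after contusion, in 10 classes of tested genes from the lowest (1) to the highest (10) mean CPM. Lower genes outnumber higher ones in classes 1 to 9, and class 10 has 182 higher and 164 lower, a balance that turned to 63 and 372 when libraries were scaled by their totals alone and to 142 and 206 when genes were classed by the contusion mean.

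The balance among the most abundant transcripts depended on the group used to rank them. Ranked by the contusion mean, the top 10 held 5 genes that rose and 2 that fell, the top 50 held 17 and 8, and the top 200 held 40 and 30. Ranked by the uninjured mean, which takes no part in the difference, the numbers were 5 and 2, 14 and 9, and 35 and 37. Of the 10 genes with the highest mean CPM over the 8 libraries, 7 rose, 0 fell and 3 did not pass. The 7 that rose had log2 differences between 0.67 and 1.04, and in each of them all 4 transection libraries lay above all 4 contusion libraries. Of the 3 that did not pass, the most abundant gene of all averaged 92385 ± 17882 CPM after transection and 67035 ± 13632 CPM after contusion (SD, n = 4 each), with overlapping groups and an adjusted p of 0.0713. The gene in place 9 averaged 33463 ± 9408 CPM after transection and 5202 ± 2523 CPM after contusion, without overlap, and narrowly missed the limit (log2 difference 2.69, SE 0.89, adjusted p = 0.0503). Ranking by the 8 libraries admits genes through the group where they are high and leaves out genes that are low there: ENSRNOG00000010079, which fell, took place 11 although its contusion mean of 27148 CPM was above that of 7 of the 10. Among the 50 most abundant genes by the same ranking 21 rose and 6 fell, and among the 200 most abundant 45 rose and 21 fell. The number of lower genes among the 50 was the least steady, from 3 to 14 over the settings, and it was 3 without transection library 2, contusion library 1 or contusion library 4. Without contusion library 2, 13 of the 50 were higher.

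Counts were more concentrated in few genes after transection. The 50 most abundant genes of a library held 55.5, 58.5, 60.2 and 53.7% of its counts in transection libraries 1 to 4, and 51.3, 46.2, 48.9 and 50.05% in contusion libraries 1 to 4. All transection libraries were above all contusion libraries. The mean was 57.0 ± 2.91% after transection and 49.1 ± 2.17% after contusion (SD, n = 4 each), a difference of 7.87 percentage points. A two-sided exact permutation test gave p = 0.0286, which is the lowest p possible with 4 libraries on each side. The 10 most abundant genes held 35.7 ± 3.10% after transection and 27.4 ± 2.40% after contusion, and the 200 most abundant held 68.1 ± 2.69% after transection and 61.8 ± 1.72% after contusion, with the same p in both cases. These 3 measures overlap; adjusted over them by the Benjamini-Hochberg method the p stays at 0.0286. Uninjured libraries held 45.5 ± 1.15% in their 50 most abundant genes, 24.4 ± 1.72% in 10 and 58.6 ± 0.812% in 200. For contusion against uninjured the exact permutation test gave unadjusted p = 0.143 with 10 genes, 0.0571 with 50 and 0.0286 with 200.

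**Figure D3:**
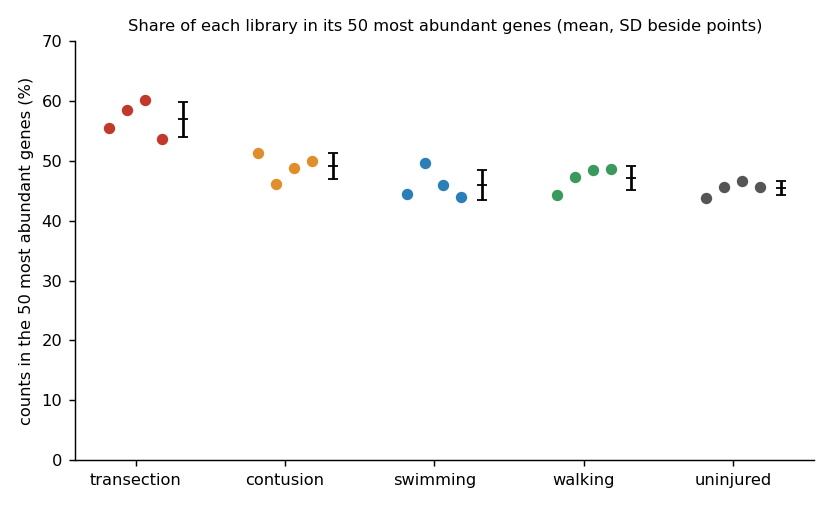
Points give, for each library, the percentage of all counts held by its own 50 most abundant genes, with the group mean and SD beside them (n = 4 libraries a group). Transection libraries sit between 53.7 and 60.2%, above all contusion libraries at 46.2 to 51.3%.

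The called genes also differed greatly in the part of the counts they held. The 813 higher genes took 37.1, 40.6, 40.3 and 33.4% of the counts in transection libraries 1 to 4, and 24.4, 21.03, 22.9 and 23.4% in contusion libraries 1 to 4. The 1240 lower genes took 4.92, 4.45, 4.02 and 5.73% in transection libraries, and 13.9, 14.96, 13.4 and 15.1% in contusion libraries. These genes were chosen by their difference between the same libraries, so the shares only describe its weight. In uninjured libraries the higher genes took 18.1 ± 1.39% and the lower genes 16.5 ± 0.586% (SD, n = 4).

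The transection libraries were not equally far from contusion. Over the higher genes, the median distance from the contusion mean in log2 CPM was 0.57, 0.71, 0.85 and 0.47 in transection libraries 1 to 4. Over the lower genes it was -0.78, -0.84, -1.08 and -0.78. Library 3 was the farthest of the 4 for 489 of the 813 higher genes and for 615 of the 1240 lower genes, and library 4 was the nearest for 459 and 429. Contusion libraries lay between -0.03 and 0.08 over the higher genes and between -0.05 and 0.04 over the lower genes. The mean is that of these same 4 libraries, so their values lie near 0 in part by construction. Across all tested genes the median SD of log2 CPM between libraries was 0.28 after transection and 0.22 after contusion. Without transection library 3 it was 0.20 after transection.

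For the same genes, the median difference between contusion and uninjured libraries was small. Their share of the counts was not the same. The higher genes took 21.03 to 24.4% in contusion libraries and 16.5 to 19.5% in uninjured libraries. The lower genes took 13.4 to 15.1% in contusion libraries and 15.99 to 17.3% in uninjured libraries. Each pair of the 3 comparisons below shares a group of libraries, so their values for the called genes are only set side by side. For the 813 higher genes the median log2 difference was 0.65 for transection over contusion, 0.74 for transection over uninjured and 0.08 for contusion over uninjured. For the 1240 lower genes the values were -0.87, -0.97 and -0.09 in the same order. Over all tested genes these medians were 0.01, 0.02 and 0.01. Contusion against uninjured by itself called 0 genes with edgeR (0% of tested genes in either direction). Of the 13398 tested genes, 1313 had an unadjusted p under 0.05, which is above a share of 0.05. With 4 libraries a group, 0 calls do not show that the groups are alike.

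**Figure D4:**
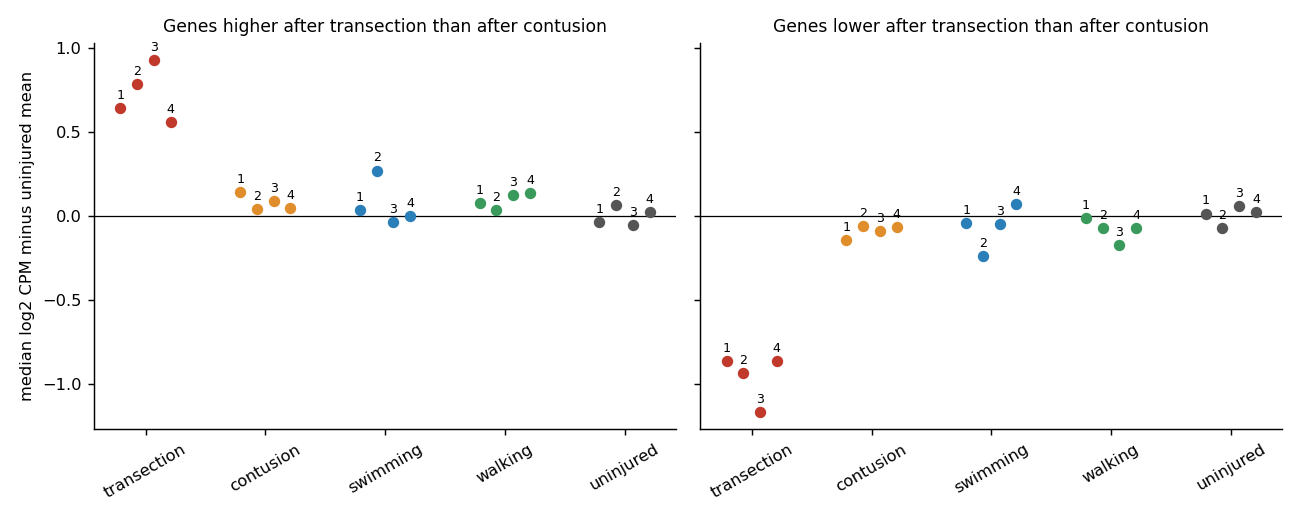
Each point is a library, numbered by replicate; its height is the median, over the genes higher (left, 813 genes) or lower (right, 1240 genes) after transection than after contusion, of log2 CPM minus the uninjured mean. Transection libraries lie from 0.56 to 0.93 on the left and from -1.16 to -0.86 on the right, and contusion libraries within 0.15 of 0; the genes were chosen on these 2 groups.

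The same genes were also read in contused rats that exercised. To keep the libraries apart, genes were called in a fit of the 8 transection and contusion libraries alone, 753 higher (5.84% of 12892 tested genes) and 1235 lower (9.58%), and then read in a separate fit of the swimming, walking and uninjured libraries, which tested 748 and 1234 of them. In swimming rats against uninjured rats, 19.9% of the higher genes were higher and 3.21% lower, where 9.80% and 8.50% of all genes tested in both fits were. Of the lower genes 12.1% were higher and 16.2% lower. Swimming library 2 weighed on these shares. Over the 813 genes higher in the fit of all 20 libraries its median stood 0.27 above the uninjured mean, where the other swimming libraries lay between -0.03 and 0.04. Over all genes its mean rank correlation with the transection libraries was 0.948, against 0.946 to 0.959 for the other swimming libraries. With the contusion libraries its value was 0.952, against 0.972 to 0.981. With its own group its value was 0.958, against 0.967 to 0.977. Without it, 14.4% of the higher genes were higher and 6.28% lower in swimming rats, where 8.64% and 8.10% of all genes were, and of the lower genes 12.1% were higher and 14.5% lower.

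In the fit of all 20 libraries every comparison uses the same estimate of the spread of each gene, so steady genes are called more easily in each. That fit gave other shares, and the cause of the difference was not tested. In that fit 17.0% of the 813 higher genes were higher and 6.77% lower in swimming rats than in uninjured rats, where 9.99% and 10.1% of all tested genes were, and of the 1240 lower genes 13.1% were higher and 19.9% lower. Without swimming library 2, 12.1% of the higher genes were higher and 8.24% lower, where 7.78% and 9% of all genes were, and of the lower genes 12.1% were higher and 16.9% lower.

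In walking rats against uninjured rats the number of calls differed between the fits, which were counted over different sets of genes. The separate fit was counted over the 12802 genes that the fit of the 8 libraries also tested. Of these, 1 was higher (0.00781%) and 6 lower (0.0469%). Among the calls, 2 were in the lower genes and 0 in the higher genes. In the fit of all 20 libraries 22 were higher (0.164% of tested genes) and 40 lower (0.299%). Of these 22, 13 (59.1%) were among the genes higher after transection than after contusion and 0 among the lower genes. Of the 40, 13 (32.5%) were among the lower genes and 2 among the higher genes. Of all tested genes, 6.07% were in the higher set and 9.26% in the lower set. Both exercise comparisons use the same uninjured libraries. The next values are from the fit of all 20 libraries. Of the 119 genes over 4-fold lower after transection, 27 (22.7%) were lower in swimming rats and 0 higher. Without swimming library 2 the numbers were 27 and 1. Of the 23 genes over 4-fold higher, 8 (34.8%) were higher and 1 lower in swimming rats, and 7 and 0 without that library. Of all tested genes, 9.99% were higher and 10.1% lower in swimming rats, and 7.78% and 9% without that library. The median log2 difference from uninjured over the 119 genes was -0.68 after swimming and -0.44 after swimming without library 2. It was -0.29 after walking and -0.17 after sedentary contusion. Over all tested genes these medians were 0.04, 0.03, 0.02 and 0.01 in the same order.

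Few transcripts were seen after one injury and not at all after the other. A count in all 4 contusion libraries and 0 in all 4 transection libraries was found for 30 identifiers, and the reverse for 6, although the transection libraries held more counts, 137999751 against 106780548. The 30 had a median of 12 counts over the contusion libraries, up to 211, and the 6 had 8, up to 19. Of the 30, 12 also had a count in every uninjured library, and of the 6, 0 had. Only 2 of the 30 and 0 of the 6 passed the low-count filter. When transection library 3 was left aside the numbers were 31 and 14. At this depth a count of 0 does not show that a transcript is absent.

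ENSRNOG00000014387 had the highest log2 difference among higher genes that averaged 1 CPM or more and whose groups were fully separate. Its level was 71.5, 37.8, 55.1 and 10.2 CPM in transection libraries 1 to 4 and 9.43, 5.29, 2.93 and 4.19 CPM in contusion libraries 1 to 4. Transection library 4 lay only just above contusion library 1, and the other transection libraries lay far above. The log2 difference was 3.01 (SE 0.86, adjusted p = 0.0262). The call was lost without transection library 1 or 3 and without contusion library 2, 3 or 4, at adjusted p between 0.0579 and 0.0720. Uninjured libraries held 1.26 to 12.9 CPM, so contusion and uninjured levels overlapped, and swimming library 2 held 42.5 CPM.

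ENSRNOG00000010410 had the lowest difference under the same limits, and rested on a single library. Transection libraries held 0 counts of it in all. Contusion libraries 1 to 4 held 0.0962, 0.121, 8.45 and 0.111 CPM, or 2, 3, 202 and 4 counts. Against the limit of 3 counts over the transection group, the pooled level was at least 77.2-fold lower after transection (adjusted p = 0.0270). Without contusion library 3 it was not called (adjusted p = 0.174), nor without any of the 4 transection libraries (adjusted p from 0.0506 to 0.0645). It was one of the 15 genes that this library held nearly alone, of which 3 were called lower. Uninjured libraries held 2 counts in all, and swimming library 3 held 2.48 CPM.

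ENSRNOG00000031979 was the most abundant gene that rose. It had 48055, 64046, 70944 and 41496 CPM in transection libraries 1 to 4 and 34713, 24754, 27049 and 33046 CPM in contusion libraries 1 to 4. All transection libraries were above all contusion libraries. The log2 difference was 0.91 (SE 0.18, adjusted p = 1.84e-03), and it was called under all 19 other settings, with log2 differences from 0.64 to 1.03. It averaged 19100 ± 725 CPM in swimming rats, 24066 ± 2529 CPM in walking rats and 20860 ± 3354 CPM in uninjured rats (SD, n = 4 each).

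ENSRNOG00000010079 was the most abundant gene that fell. It had 3766, 6215, 4538 and 5650 CPM in transection libraries 1 to 4 and 31465, 25209, 19360 and 32559 CPM in contusion libraries 1 to 4. The groups were far apart, the highest transection library holding less than the lowest contusion library. The log2 difference was -2.43 (SE 0.56, adjusted p = 6.93e-03), and it was called under all 19 other settings, from -2.67 to -2.30. Contusion libraries averaged 27148 ± 6119 CPM and uninjured libraries 27850 ± 5179 CPM (SD, n = 4 each), a difference smaller than the spread within either group. Swimming libraries 1 to 4 held 15518, 728, 16999 and 19826 CPM, so that library 2 was below even the transection libraries.

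ENSRNOG00000019745, chosen because it was known to be the gene most raised by transection over no injury, lay at the edge of the limit here. It had 1202, 1904, 1377 and 965 CPM in transection libraries 1 to 4 and 195, 112, 248 and 10.3 CPM in contusion libraries 1 to 4. The groups did not overlap, and contusion library 4 was more than 10 times lower than the other contusion libraries. The log2 difference was 3.27 (SE 1.10, adjusted p = 0.0538), which did not pass, while 7 of 19 other settings called it, with adjusted p from 2.22e-03 to 0.121 over all 19. Uninjured libraries held 2.40 to 7.95 CPM, below every contusion library. Swimming libraries held 112 to 8209 CPM and walking libraries 155 to 502 CPM, where swimming library 2 was the one above all transection libraries.

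**Figure D5:**
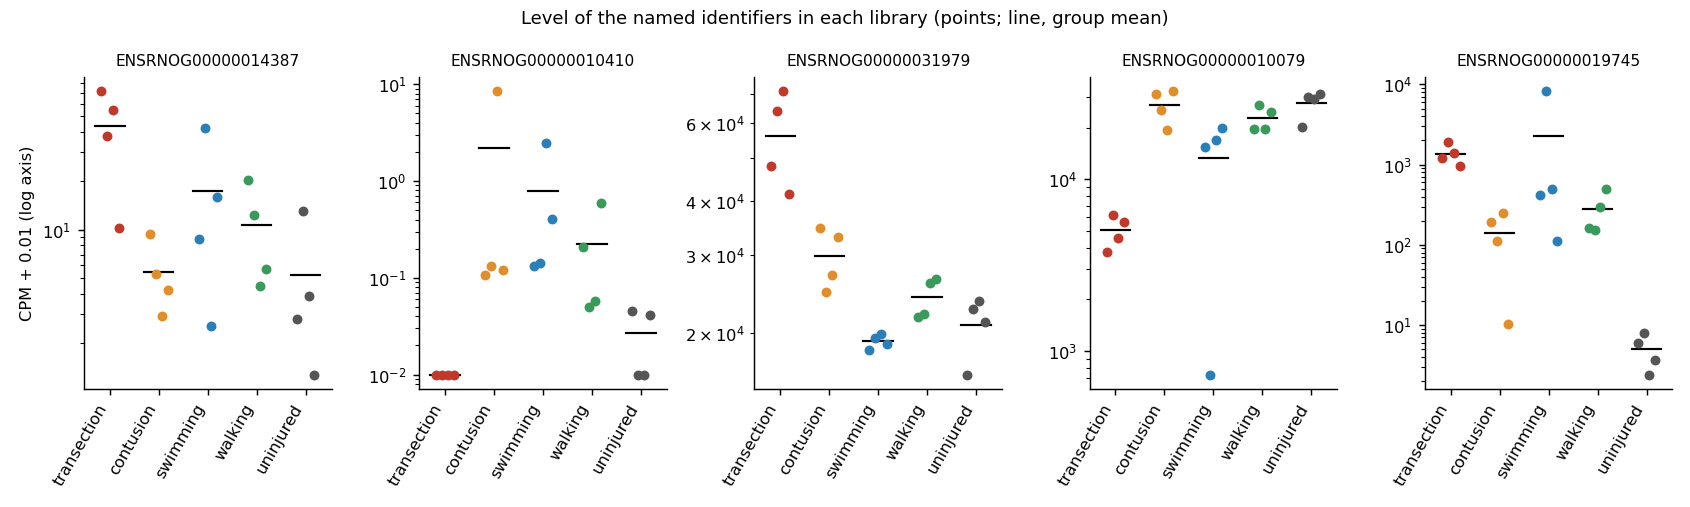
Each panel is an identifier and each point a library, with CPM plus 0.01 on a log axis and a line at the group mean. ENSRNOG00000031979 and ENSRNOG00000010079 separate transection from contusion in every library; ENSRNOG00000010410 is high in contusion library 3 alone among the 8 libraries compared.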

How the data were processed

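The authors deposited whole-number counts per gene for 20 libraries of soleus poly-A RNA, made with a stranded kit per the labels' protocols. Per the submitters' processing notes, FastQC 0.10.1, HTSeq and the rn6 build were used; the aligner, annotation and strand setting are not given in the sources used here. Overlapping genes and near-identical copies may share counts. Groups and columns were taken from the labels, which describe separate animals. Over 30 within-group pairs, chi-square per degree of freedom was 26.5 to 517, far above counting error, so all were kept as separate libraries.

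edgeR 4.0.16 in R 4.3.3 was run on all 20 libraries with a mean per group, trimmed mean of M values scaling, filterByExpr (minimum count 10) and the quasi-likelihood F test with robust estimation, which gives the numbers of called genes known from earlier processing; the plain estimation is among the alternatives. Genes were called at a Benjamini-Hochberg adjusted p below 0.05. The SE is the log2 fold change over the square root of F, with a prior count of 0.125; components used log2 CPM with a prior count of 2. Precision is limited by 4 libraries a group. Intervals for counting error alone are not given. Alternatives used DESeq2 1.42.0, voom in limma 3.58.1, other scalings, filters and sets of libraries, a replicate block and each library left out. Rankings of abundance by a single group, and separate fits of the compared and the other libraries, were added after seeing the data. The tests were checked on simulated data in which few genes changed and no library stood apart. That check does not cover single libraries that stand apart or the dependence on the scaling. Figures used matplotlib 3.10.9.

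The groups, the gene lists and the rule for named genes were chosen with earlier results of these data known. The rule takes the highest and lowest log2 change among called genes that average 1 CPM or more with fully separate groups, and the most abundant called gene each way. The 29 gene lists need symbols and were not used, and no sequence is shown for the same reason.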

Additional observations from a re-analysis of the deposited data

Results flagged for a closer look

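Among 40 groups of 4 values examined (measures of the transection and contusion libraries, and levels of the 5 identifiers), 4 contained a value far outside the range of the rest. About 2 would by chance, at 1 in 20, if the groups were independent. They share libraries, and the identifiers were picked by their values, so no conclusion is drawn from the 2 numbers. Contusion library 3 had a mean rank correlation of 0.982 with its own group, the next lowest being 0.986. On the second principal component of the 8 libraries, transection library 3 lay at -34.98 and the next lowest transection library at 29.5. ENSRNOG00000010410 stood at 8.45 CPM in contusion library 3 and at 0.121 CPM in the next highest contusion library. ENSRNOG00000010079 stood at 20165 CPM in uninjured library 1, the next lowest being 29544 CPM. The direct test found a difference between the injuries at 2053 genes, which is also the test that their changes from uninjured muscle differ.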

How the results depend on the processing

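The number of higher genes, 813, moved by over 1.5 times to 218 with library totals as the only scaling and to 1295 with voom; the number of lower genes, 1240, moved to 2293 with library totals. Leaving out any single transection or contusion library gave 438 to 936 higher and 882 to 1228 lower genes. DESeq2 called 1054 and 1494, and the compared groups alone 753 and 1235. edgeR without robust estimation, an alternative chosen after seeing the data, called 815 and 1267. Without transection library 3 and swimming library 2 the numbers were 642 and 1273. In these and the other fits tried, 0 genes were called in the opposite direction, and 1 called gene changed sign, without transection library 2. The difference in the share of the 50 most abundant genes was 6.80 to 8.95 percentage points with a library left out, where 3 against 4 libraries allow no p under 0.0571, so that p says nothing about stability. The causes of these shifts were not tested.

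With the replicate number as a block, 729 genes were higher and 1167 lower. The labels do not say that the numbers pair libraries. Deviations of same-numbered transection and contusion libraries correlated between -0.00254 and 0.145, and 1 of 4 transection libraries correlated best with its own number. With 4 libraries a group these values cannot decide whether libraries were paired. The alternatives for gene lists were not run, since the identifiers have no symbols. With 4 libraries a group, log2 differences had a median SE of 0.21 over tested genes, which limits the small changes that can be called. How much of it came from depth and how much from spread between animals was not tested.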
